A study of Mus musculus with 16 samples.

Results

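Collagens, laminins, matrix metalloproteinases with their tissue inhibitors (TIMPs), ADAM and ADAMTS proteases and integrins were followed in liver RNA of 16 male mice. Members were taken by symbol: every gene named on the array as a collagen chain, laminin chain, Adam, Adamts, Mmp, Timp or integrin, leaving out Mmp12, and each was read by its probe of highest mean. This gave 77 genes of the 7409 that could be named, represented by 87 of the 24048 probes on the array. The study has 7 animals labelled Lactb transgenic and 9 labelled FVB wildtype. The promoter that drives the transgene, and whether it acts in liver alone, are not given in the sources used here. Both groups were 23 weeks old and had changed at 11 weeks from chow with 4% fat to chow with 6% fat. Lactb encodes a mitochondrial serine protease-like protein, and no named probe read it (0 probes), so the transgene product itself was not analysed here.

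The extracellular matrix of the liver is a sparse meshwork between sinusoids and hepatocytes, with fibrillar collagens of types I, III and V in the portal tracts, beaded filaments of collagen VI, and thin basement membranes of collagen IV and laminin around vessels and ducts. Hepatic stellate cells and portal fibroblasts make most of its fibrillar collagen, and they do so in excess when the liver scars. Metalloproteinases cut matrix and cell surface proteins, TIMPs block them, and integrins are the paired alpha and beta receptors through which cells hold on to matrix or to each other.

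Each value is a background-subtracted intensity of a bead array, and values below 0 are readings under background. A reading was counted as above the noise when it exceeded the upper 95% point of a normal distribution with the noise SD of its array, a limit of 17.1 to 32.5 intensity units. The arrays detected 9907 to 11564 probes each. The labelled tissue was checked on hepatocyte genes: Apoa1, Trf and Serpina1a, the 3 named of the 8 listed, were above the noise on all 16 arrays. Tests used log2 levels after background modelling and quantile normalization, and 11317 probes that were above the noise on at least 6 arrays were tested. Probes differ in how well they bind, so no level was set against that of another gene.

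Much of the matrix family was not measurable with these probes. Of the 77 members 39 were above the noise on no array and 11 on 1 to 5 arrays, which left 27 tested genes (35.1%, against 53.5% of all named genes and 47.1% of all probes), 11 of them above the noise on all 16 arrays. By class, 9 of 25 collagen chains, 3 of 5 laminin chains, 1 of 6 metalloproteinases, 2 of 2 TIMPs, 5 of 17 ADAM genes, 2 of 10 ADAMTS genes, 1 of 3 leukocyte integrin chains, 0 of 4 other integrin alpha chains, 2 of 2 other beta chains and 2 of 3 integrin-like or integrin-binding genes were tested. A low reading belongs to a probe and not with certainty to a gene. Col1a2, the partner chain of Col1a1 in type I collagen, was above the noise on 1 array (-19.5 to 20.4), where Col1a1 reached 258.7. For Timp3 a further probe read -27.8 to -6.1 on the same arrays on which the chosen probe read 225.8 to 469.4. The widely used sheddase Adam10 and the leukocyte integrin chains Itgam and Itga4 were above the noise on 0 arrays and the vitronectin receptor chain Itgav on 1, and nothing can be said of their level.

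**Figure D1:**
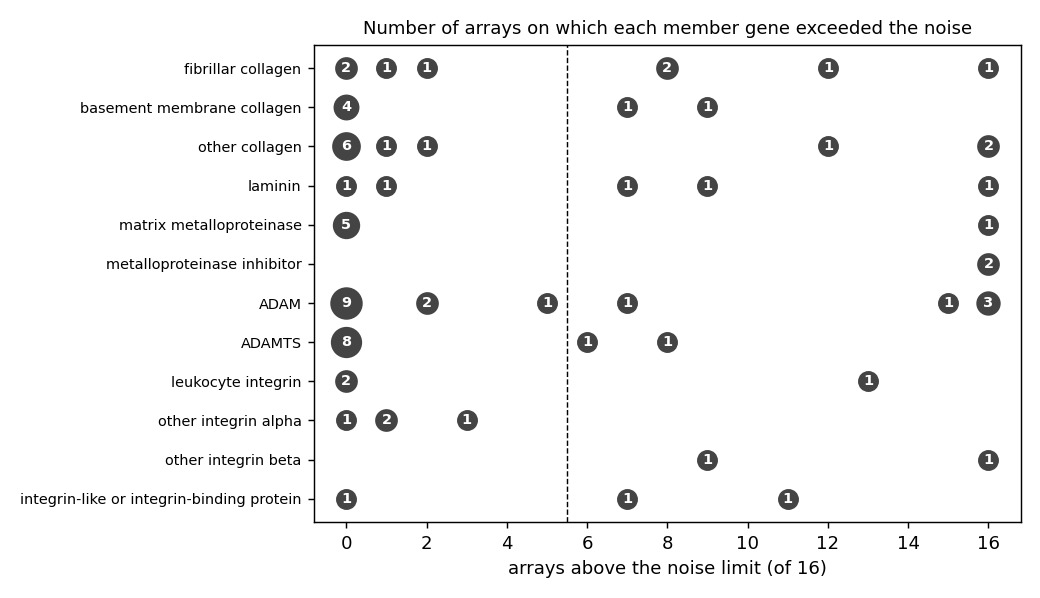
Number of arrays, of 16, on which each of the 77 members was above the noise limit, by class. Each circle stands at a number of arrays and holds the number of genes there, and genes right of the dashed line (at least 6 arrays) were tested. The members gather at the ends, with 39 genes at 0 arrays and 11 genes at 16.

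The collagens differed widely between animals, and both genotypes were among the low and the high animals. Mmp12, the macrophage elastase left out of the members, divides these livers into 6 animals with -11.3 to 9.5 intensity units (transgenic replicates 1 and 2, wildtype replicates 1, 2, 8 and 9), a pair with 129.0 and 155.9 (wildtype replicates 3 and 7) and 8 animals with 410.2 to 770.2 (transgenic replicates 3 to 7, wildtype replicates 4 to 6). In the 6 animals of least Mmp12 the collagens I, III, V and VI were low, and in the 8 of most Mmp12 they were high. These orders were read from the same arrays on which the animals were listed, so they are a description without a test.

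Col1a1, the main chain of type I collagen, lay between -9.1 and 258.7 in transgenic animals (median 99.6) and between -0.3 and 222.8 in wildtype animals (median 35.4). It read -9.1 to 35.4 in the 6 animals of least Mmp12 and 79.6 to 258.7 in the 8 of most, so those sets did not overlap while the genotypes did. Col3a1, the single chain of type III collagen, lay between -15.1 and 62.9 in transgenic (median 43.7) and between -13.6 and 82.9 in wildtype animals (median -5.6). All 6 animals of least Mmp12 read below 0 for Col3a1, at -15.1 to -5.6, and the 8 of most read 19.1 to 82.9. Col5a1, a chain of the type V collagen that starts and narrows fibrils, was measured on all arrays and ran from 73.6 to 249.9 in transgenic (median 193.6) and from 58.5 to 243.3 in wildtype animals (median 140.0). Its readings were 58.5 to 140.0 in the 6 and 180.6 to 249.9 in the 8.

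Both measured chains of collagen VI spread in the same way. Col6a3 lay between 113.4 and 404.6 in transgenic (median 274.5) and between 83.3 and 719.4 in wildtype animals (median 155.7), a 5.28-fold range on the normalized log2 scale. The 6 animals of least Mmp12 held 83.3 to 155.7 and the 8 of most 263.1 to 719.4. Col6a1 ran from 118.0 to 424.2 in transgenic (median 233.7) and from 79.3 to 490.7 in wildtype animals (median 183.2). Its intensities were likewise apart, at 79.3 to 183.2 and 224.5 to 490.7, but after normalization the highest of the 6 slightly exceeded the lowest of the 8 (7.99 on the log2 scale). Col15a1 of vascular basement membranes read -5.3 to 12.8 in the 6 and 14.6 to 56.3 in the 8, mostly near the noise. Col4a5, a basement membrane chain, ran from 1.9 to 67.1 with overlapping sets. Col27a1, a fibrillar collagen known from cartilage, ran the other way for most animals: 5 of the 6 animals of least Mmp12 read 32.8 to 99.5, while wildtype replicate 9 read 13.8 and the 8 of most read -5.4 to 24.2. Col13a1, a transmembrane collagen, ran from 7.7 to 57.2 with no such order.

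**Figure D2:**
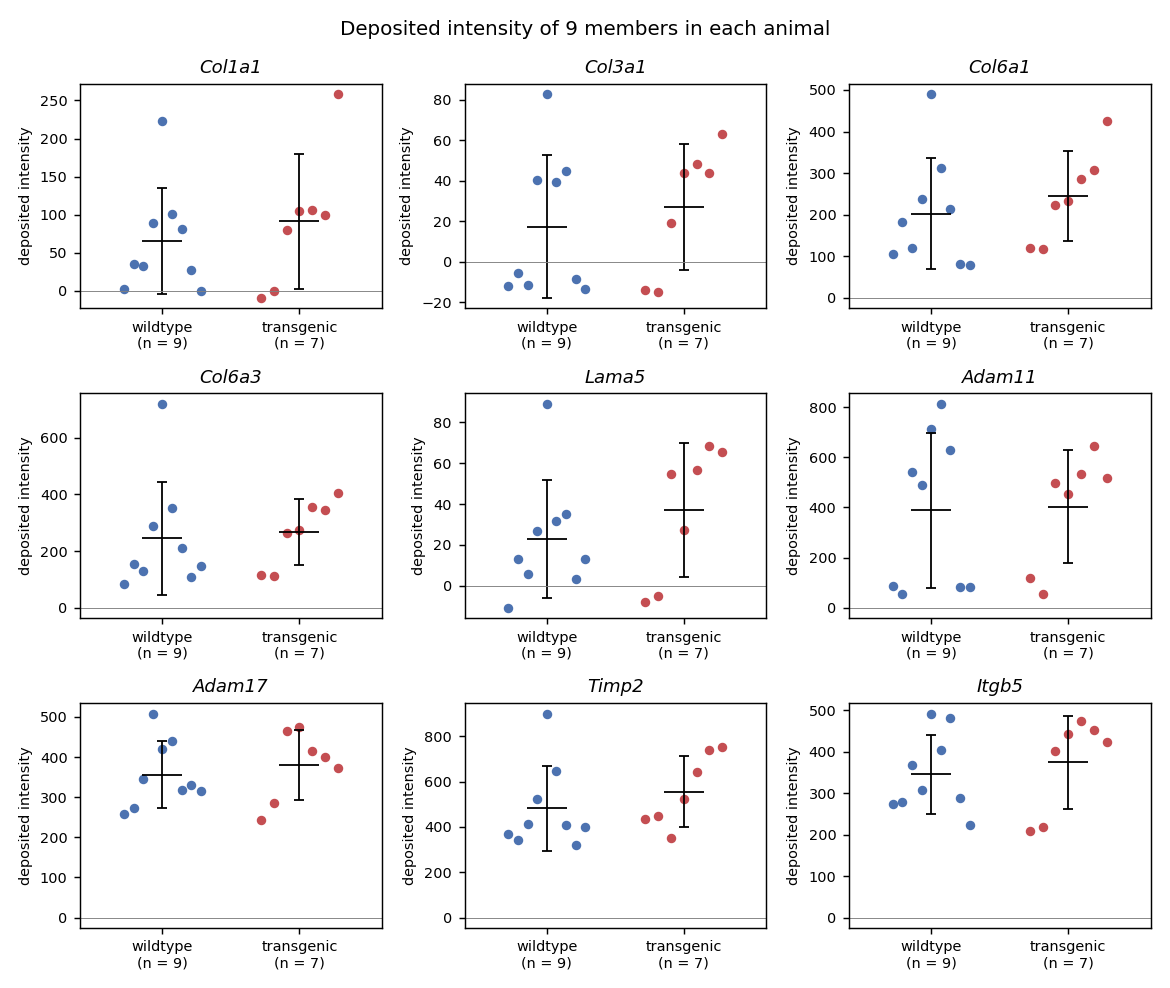
Deposited intensity (linear units, background subtracted) of 9 members in each animal; points are animals in the order of their replicate numbers, and black lines give the mean and SD of each genotype. The points of each genotype fall into low and high animals, as for Col3a1 at -15.1 to 82.9, and the genotypes overlap for all 9 genes.

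The letters upstream of genes that shared this order are shown for 4 of them, to let their promoters be compared. A RefSeq promoter (GRCm38.p6, 250 bases before to 50 after the gene start) was on hand for 52 of the 77 members. Capitals mark any match, on either strand, to the AP-1 motif TGANTCA, the GC box GGGCGG or the CCAAT box CCAAT, and on the given strand to the TATA box TATAAA.
Col3a1, chr1:45311288-45311587, plus strand: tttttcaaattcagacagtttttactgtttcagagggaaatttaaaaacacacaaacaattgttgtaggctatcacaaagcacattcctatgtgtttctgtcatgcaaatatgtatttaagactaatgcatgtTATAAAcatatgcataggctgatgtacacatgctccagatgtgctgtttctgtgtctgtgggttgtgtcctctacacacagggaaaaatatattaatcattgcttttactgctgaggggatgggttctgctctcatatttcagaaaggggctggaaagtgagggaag
Col5a1, chr2:27886175-27886474, plus strand: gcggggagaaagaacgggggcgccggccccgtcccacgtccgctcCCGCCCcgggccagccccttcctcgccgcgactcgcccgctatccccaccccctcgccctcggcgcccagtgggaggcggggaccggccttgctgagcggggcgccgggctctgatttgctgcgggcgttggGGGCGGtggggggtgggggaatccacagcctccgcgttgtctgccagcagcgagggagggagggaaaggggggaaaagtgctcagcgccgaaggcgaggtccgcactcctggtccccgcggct
Col6a3, chr1:90843922-90844221, minus strand: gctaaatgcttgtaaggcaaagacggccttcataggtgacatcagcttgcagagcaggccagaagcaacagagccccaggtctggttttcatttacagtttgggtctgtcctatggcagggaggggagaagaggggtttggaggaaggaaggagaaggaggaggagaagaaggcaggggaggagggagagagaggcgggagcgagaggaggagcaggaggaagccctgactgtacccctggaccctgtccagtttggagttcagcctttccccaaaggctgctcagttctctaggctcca
Lama5, chr2:180225810-180226109, minus strand: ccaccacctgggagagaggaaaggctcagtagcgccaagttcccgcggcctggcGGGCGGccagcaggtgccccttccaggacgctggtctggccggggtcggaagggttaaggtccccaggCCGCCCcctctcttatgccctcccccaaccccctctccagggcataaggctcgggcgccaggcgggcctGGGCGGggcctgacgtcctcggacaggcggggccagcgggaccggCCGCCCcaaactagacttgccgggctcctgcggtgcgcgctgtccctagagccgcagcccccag
Col3a1 and Col6a3 lie on the same chromosome and share little in composition: the Col3a1 window is 37.7% G and C with 1 TATA box match, and that of Col6a3 is 56.3% with none of the 4 motifs. Col5a1 (75.0%) has 2 GC box matches and Lama5 (72.7%) has 4, with no overlap between them. The GC box occurs in 57.7% of the 52 member promoters and in 35.9% of 27025 promoters of all genes, beside a median G and C content of 61.7% against 52.7%. AP-1 letters occur in 5.77% of member promoters and 7.93% of all, CCAAT in 26.9% and 37.9%, and TATAAA in 7.69% and 8.88%. Among the 18 tested members with a promoter, 1 holds the AP-1 letters, Col6a1. A match is a description of the window, not a binding site.

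Among laminins, Lama5, the alpha chain of the most widespread adult laminins, read -10.7 to 13.3 in the 6 animals of least Mmp12 and 26.9 to 89.1 in the 8 of most. Lamb2, a beta chain of vascular basement membranes, was measured on all arrays, lay between 69.2 and 115.7 in transgenic and between 55.2 and 131.0 in wildtype animals, and its sets overlapped.

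The widest spread among proteases belonged to Adam11, an ADAM protein without a working protease domain and known from neurons. It lay between 54.6 and 645.8 in transgenic (median 496.5) and between 56.6 and 814.2 in wildtype animals (median 491.2), a 7.18-fold range on the log2 scale. The 6 animals of least Mmp12 read 54.6 to 117.3 and the 8 of most 454.6 to 814.2. Wildtype replicates 3 and 7 stood with the high animals for Adam11, at 543.1 and 630.3. For collagen they parted: wildtype replicate 3 read 32.5 for Col1a1, -11.5 for Col3a1 and 131.1 for Col6a3, within the range of the 6 low animals, and wildtype replicate 7 read 81.9, 45 and 211.2.

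Adam17, the sheddase that releases tumour necrosis factor, lay between 243.9 and 475.8 in transgenic (median 399.5) and between 257.4 and 508.5 in wildtype animals (median 330.8). Its sets were apart at 243.9 to 330.8 and 373.8 to 508.5, a small step beside that of Adam11. Adam23, another ADAM protein without protease activity, read 87.1 to 144.3 in the 6 and 157.6 to 272.2 in the 8, and its sets overlapped after normalization. Adam12 (16.6 to 76.0) and Adam28 of lymphocytes (-0.3 to 56.2) were close to the noise with no order. Adamts2, which trims the amino end of procollagen, ran from -12.5 to 86.1 and the aggrecan-cutting Adamts5 from -5.8 to 56.8, both with overlapping sets.

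Mmp19, the single metalloproteinase tested among the members, which leave out Mmp12, was steady: 97.9 to 162.3 in transgenic and 78.9 to 139.2 in wildtype animals. Its SD within genotype was larger than that of 5.5% of probes of similar level (the 100 nearest on each side). Timp2, an inhibitor that also takes part in activating a gelatinase, lay between 349.1 and 754.0 in transgenic (median 522.3) and between 321.6 and 900.7 in wildtype animals (median 410.2), with an SD above 94.5% of probes of similar level. Timp3, the matrix-bound inhibitor, ran from 225.8 to 469.4, with an SD above 49.0% of them. Over the 27 tested members the median of this percentile was 81.5, and Col1a1 stood highest at 99.0.

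Of the integrins, Itgb5, the beta chain of a vitronectin receptor, read 209.6 to 473.5 in transgenic (median 425.0) and 223.2 to 492.7 in wildtype animals (median 307.0). Its intensities were 209.6 to 289.2 in the 6 animals and 307.0 to 492.7 in the 8, again overlapping after normalization. Itgal, the alpha chain of a leukocyte receptor for adhesion molecules, ran from 20.8 to 73.4, Itgb4 of the epithelial laminin receptor from 10.9 to 42.9, and Itgb2l, a mouse beta chain like that of leukocytes, from 15.9 to 47.6. These 3 were dim and had overlapping sets. Itgbl1, a secreted protein with the EGF repeats of beta chains, ran from -20.9 to 107.1.

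Counted on the log2 scale, 4 of the 11 members above the noise on all arrays had all 6 animals of least Mmp12 below all 8 of most (Adam11, Adam17, Col5a1 and Col6a3; 36.4%, against 9.86% of the 7787 probes above the noise on all arrays), and 0 had the opposite order (9.81% of those probes). Adam17 entered that count narrowly, with a log2 level of 8.675 in the highest of the 6 and 8.679 in the lowest of the 8. Among all 27 tested members 8 had the order, against 9.81% of tested probes, and 0 the opposite, against 7.28%. The other 4, Col1a1, Col3a1, Col15a1 and Lama5, were above the noise on 7 to 12 arrays and passed the noise filter through arrays where they were high, so the count over 27 is given as values and not as support. On deposited intensities 7 of the 11 members above the noise on all arrays had the order, where 17.7% of such probes did. Over the 27 the number was 11, beside 15.8% of tested probes, and 0 had the opposite order, beside 3.81%.

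Several measures moved with this order. The 6 animals of least Mmp12 had 9907 to 10252 detected probes and the 8 of most 10690 to 11564. The summed intensity of the 8 named macrophage markers, of 15 listed, was 1173.3 to 1819.2 in the 6 and 8606.1 to 14379.2 in the 8 (readings below 0 counted as 0). That list holds Mmp12, which sets the order, and Gpnmb. Without both, the sums were 1171.5 to 1809.7 and 6537.8 to 9504.3, and 5 of the 6 markers left had the order, beside 9.81% of tested probes. Cd68, 1 of those 5, was above the noise on 10 arrays and passed the noise filter through the high animals. For stellate cells and fibroblasts, with 6 of 9 markers named, the sums were 5698.4 to 6706.3 and 6379.0 to 9606.0. Among these Dcn had the order (3296.3 to 4036.7 and 4253.2 to 6054.0), Lrat and Reln did not, and Ngfr and the myofibroblast actin Acta2 were above the noise on 0 arrays. Colec11 was apart on deposited intensities (377.0 to 547.3 and 581.3 to 727.2) and overlapped after normalization. The summed hepatocyte genes, 3 of 8 named, ran from 61524.9 to 71807.4 in the 6 and from 42560.3 to 59724.4 in the 8. Of these, Serpina1a was apart (6735.2 to 9563.2 and 2254.1 to 3358.1). Apoa1 (29376.4 to 36045 and 20433.6 to 30384.4) and Trf (25194.3 to 27547.6 and 19693 to 26251.7) overlapped. Cholangiocyte markers, 4 of 7 named with Krt19 on 0 arrays, summed to 225.3 to 468.9 and 1025.2 to 3490.3. Spp1 had the order, as did Prom1, which was above the noise on 10 arrays and passed the noise filter through the high animals. Cldn4, above the noise on all 16 arrays, overlapped (35.5 to 76.4 and 40.6 to 139.1). Neutrophil markers, 4 of 8 named with Mpo on 0 arrays, summed to 50 to 112.1 and 219.6 to 320.2. S100a9, above the noise on 10 arrays, carried that sum (7.2 to 49.4 and 192.0 to 286.6). Cxcr2 overlapped (8.5 to 57.3 and 19.1 to 39.6) and Elane, above the noise on 1 array, read 9.0 to 31.3 and -6.1 to 8.4. Endothelial sums, 3 of 8 named, overlapped at 4133.9 to 5865.7 and 5266.7 to 6151.5, as did the 1 named lymphocyte marker of 10, Cd3e, at 4.0 to 42.2 and 13.3 to 64.7. The part of these measures in the collagen values was not tested. In whole tissue, fewer cells of a type and less RNA per cell cannot be told apart. Across genotypes the sums overlapped, for macrophages at 1173.3 to 14379.2 in transgenic and 1182.5 to 11502.9 in wildtype animals.

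**Figure D3:**
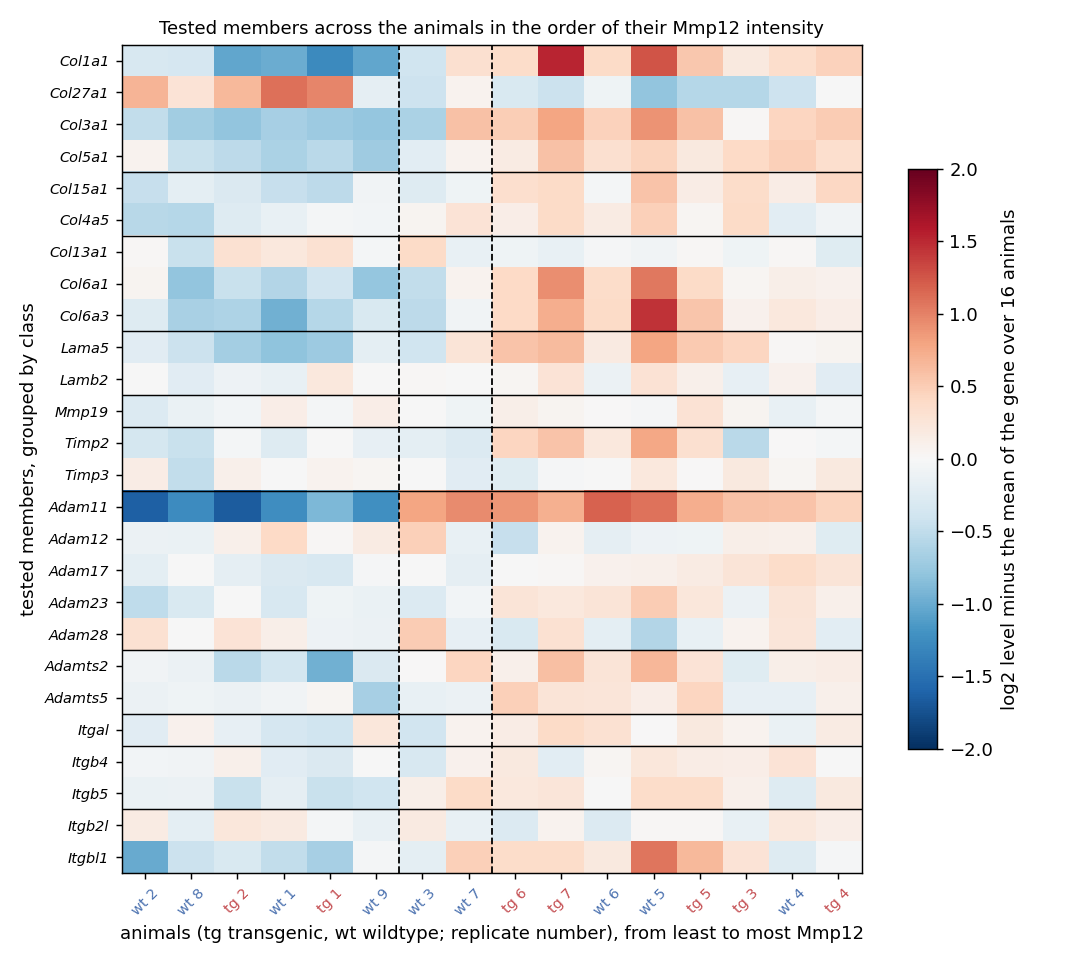
Log2 level of 26 tested members (rows, grouped by class) minus the mean of each gene over 16 animals, with the animals from least to most Mmp12 and dashed lines after the 6th and 8th. Col1a1, Col3a1, Col6a3, Lama5 and Adam11 turn from blue to red along the order, and wildtype replicate 5 and transgenic replicate 7 hold the strongest red for Col1a1, Col6a1 and Col6a3.

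Within the 8 animals of most Mmp12, some matrix genes were highest in the same pair of animals. Wildtype replicate 5 had the highest log2 level of 6 of the 11 members above the noise on all arrays (54.5%, against 4.1% of such probes). It held 719.4 for Col6a3, where the next animal, transgenic replicate 7, held 404.6. These 2 animals, which do not share a title number, had the 2 highest levels of Col6a1, Col6a3, Lamb2 and Timp2, or 4 of 11 (36.4%, against 2.27% of such probes). Among the dimmer members they also led on the log2 scale for Col1a1 (222.8 and 258.7), Col3a1, Col4a5, Lama5 and Adamts2, which were above the noise on 8 to 12 arrays and are given as values. On deposited intensities transgenic replicate 7 (52.3) lay below transgenic replicate 3 (58.2) for Col4a5. For Lama5 transgenic replicate 7 (65.3) lay below transgenic replicate 6 (68.2).

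Wildtype replicate 5 and transgenic replicate 7 were not the animals of most Mmp12, at 475.0 and 433.6. The 3 animals of most Mmp12, transgenic replicates 3 and 4 and wildtype replicate 4 (685.6 to 770.2), were the lowest of the 8 for Adam11, Col6a1, Col6a3 and Timp2 on the log2 scale, 4 of 11 members (36.4%, against 5.66% of such probes). For Col6a1 they read 224.5 to 238.1, where the other 5 read 285.0 to 490.7. Adam17 was the exception, highest of the 8 in those 3 animals (465.6 to 508.5, with the other 5 at 373.8 to 439.9). That order was held by 6.99% of such probes. These patterns were chosen after the values were seen.

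The comparison of genotypes asks whether Lactb transgenic livers differ from wildtype livers in these genes. None of the members passed: limma called 0 of 27 at an adjusted p under 0.05 (lowest adjusted p = 0.932), beside 0% of all 11317 tested probes. At an unadjusted p under 0.05 stood 1 member (3.70%), beside 2.93% of all tested probes. The transgenic mean was higher for 22 of the 27 members, where it was higher for 48.7% of all tested probes, and for 11 of the 11 members above the noise on all arrays, beside 45.8% of such probes. The genes were read in the same animals, so these counts are not of independent results. Of the 8 animals of most Mmp12, 5 were transgenic and 3 wildtype, and of the 6 of least, 2 and 4. The median log2 difference, transgenic minus wildtype, was 0.10 over the 27 and -0.0041 over all tested probes. With single animals left out the members' median ran from 0.077 to 0.16, the latter without transgenic replicate 1. In 0 of the 27 did the genotypes stand apart without overlap, beside 0.00884% of tested probes. Each p-value treats the animals as independent, although animals of a genotype that share the number in their titles correlated by 0.379.

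The smallest p was that of Adamts5, with a log2 level of 6.35 ± 0.25 (SD, n = 7) in Lactb transgenic livers and 6.09 ± 0.25 (SD, n = 9) in FVB wildtype livers, a difference of 0.26 (SE 0.12). It was above the noise in 4 transgenic and 2 wildtype animals, so the size of this difference is uncertain. With single animals left out the difference ran from 0.19 to 0.31, lowest without wildtype replicate 9. The unadjusted p of Adamts5 was 0.0472 in limma, and the adjusted p was 0.932. Mmp19, measured on all arrays, differed by 0.10 (SE 0.072), with a 95% interval from -0.048 to 0.25.

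Among collagens the differences ran from -0.065 for Col27a1 to 0.25 for Col6a1. Col6a1 had a log2 level of 8.10 ± 0.48 (SD, n = 7) in Lactb transgenic livers against 7.85 ± 0.61 (SD, n = 9) in the wildtype, and its interval reached from -0.28 to 0.79. For Col3a1 the difference was 0.22 (SE 0.30), for Col15a1 0.21 (SE 0.16), for Col1a1 0.20 (SE 0.38), for Col6a3 0.18 (SE 0.29), for Col5a1 0.16 (SE 0.21), for Col4a5 0.14 (SE 0.15) and for Col13a1 0.016. That of Col1a1 rested on transgenic replicate 7, since without it the difference was -0.038. Laminins gave 0.21 for Lama5 (SE 0.24) and 0.030 for Lamb2. All of these differences were smaller than the spread between animals of a genotype.

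The TIMPs differed by 0.17 (Timp2, SE 0.17) and 0.079 (Timp3). ADAM genes ran from -0.12 for Adam12 to 0.20 for Adam11 (SE 0.51), with Adam23 at 0.15, Adam17 at 0.045 and Adam28 at -0.028, and Adamts2 stood at -0.16 (SE 0.20). Integrin and integrin-like genes gave 0.099 for Itgal, 0.058 for Itgb5, 0.018 for Itgb4, 0.17 for Itgbl1 (SE 0.25) and -0.00076 for Itgb2l. Of the 27 members, 25 had a 95% interval that kept inside 2-fold in both directions, and 18 had one inside 1.5-fold. The exceptions to the first were Adam11, with an interval from -0.86 to 1.27, and Col1a1, from -0.61 to 1.002.

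When the log2 level of Gpnmb, a macrophage glycoprotein that separates the same 6 and 8 animals as Mmp12, was added to the fit, the transgenic mean was higher for 16 of the 27 members (50.3% of all tested probes), and the median difference was 0.013. Col1a1 (-0.14), Col3a1 (-0.057), Col5a1 (-0.023), Col6a3 (-0.050) and Adam11 (-0.28, SE 0.15) then had a lower transgenic mean. Adamts2 gave -0.33 (SE 0.11), its unadjusted p of 0.00803 in limma being the single one under 0.05, with an adjusted p of 1. Again 0 members passed, beside 0% of all tested probes. Gpnmb is itself an outcome in these livers, so this fit describes the genotype difference at an equal Gpnmb level and replaces nothing.

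**Figure D4:**
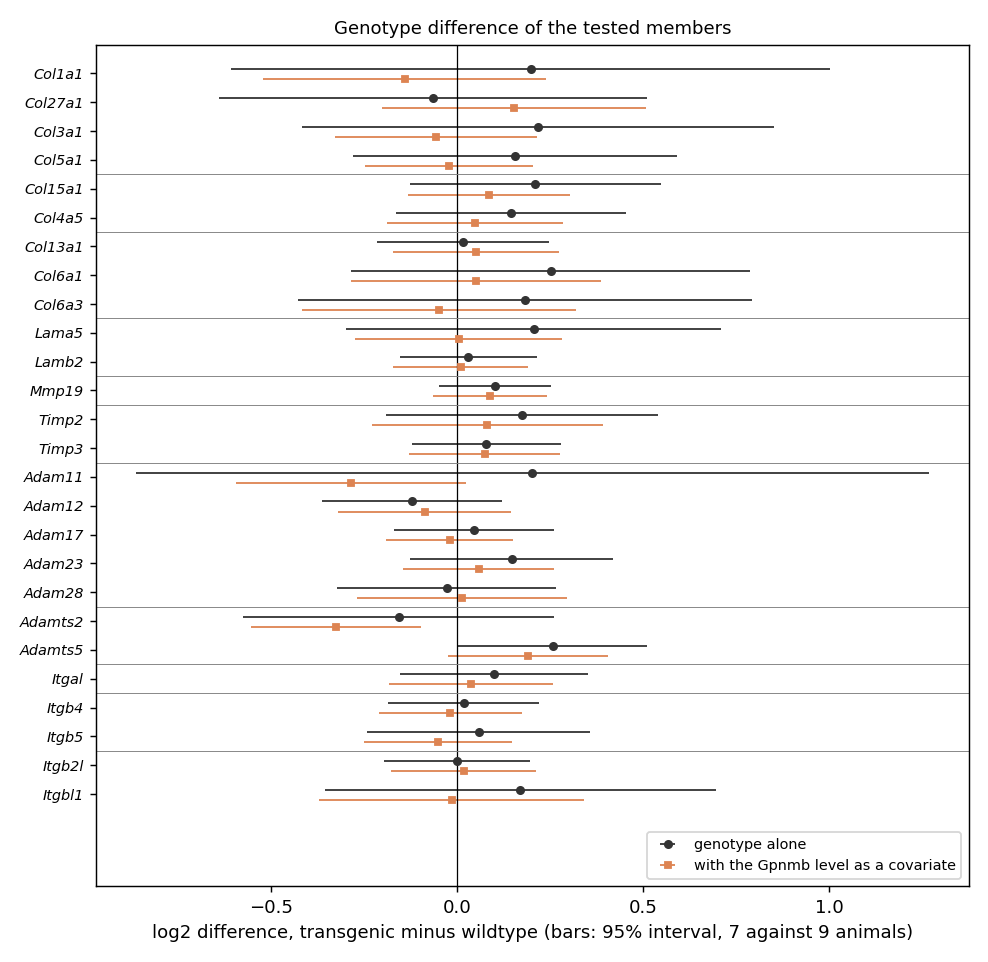
Log2 difference, transgenic minus wildtype, of 26 tested members with 95% intervals (7 against 9 animals), for genotype alone (black circles) and with the Gpnmb level as a covariate (orange squares). In the fit of genotype alone 21 of the 26 points lie above 0, and with the covariate 15 do.

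Other genes of matrix assembly were read in the same fit. Collagen maturation had 8 tested genes of 23 listed (9 named), 5 with a higher and 3 with a lower transgenic mean, a median difference of 0.060 and 0 past the threshold. Its genes of smallest p had log2 differences of 0.15 for Pcolce, the enhancer of procollagen trimming, 0.39 for the collagen chaperone Serpinh1 and 0.27 for the cross-linking oxidase Loxl1. Along the order of Mmp12, Serpinh1 read 95.4 to 261.8 in the 6 animals and 412.2 to 715.4 in the 8, and Loxl1 20.4 to 48.8 and 84.2 to 306.5. The procollagen proteinase Bmp1 had the opposite order, at 526.8 to 668.9 and 383.2 to 477.1.

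Glycoproteins and proteoglycans had 7 tested of 37 listed, 6 higher and 1 lower, with a median log2 difference of 0.12 and 0 past the threshold; Fbln2 stood at 0.38, Tnxb at 0.17 and Thbs2 at 0.23. In the order of Mmp12, which 9.81% of tested probes had, stood Dcn and the basement membrane proteoglycan Hspg2 (344.0 to 410.9 and 473.9 to 584.0). Fbln2 did too, at -2.6 to 21.4 and 30.3 to 99.0, but it was above the noise on 9 arrays and passed the noise filter through the high animals. The TGF-beta and stellate cell list had 6 tested of 25, all 6 higher, a median of 0.16 and 0 past the threshold, with Tgfb2 at 0.092, the receptor Tgfbr1 at 0.17 and Pdgfa at 0.19. Of these, the latent TGF-beta binding proteins Ltbp2 (26.4 to 54.0 and 94.8 to 432.2) and Ltbp3, and Tgfbr1 (783.4 to 892.4 and 1117.7 to 1430.9), had the order. The plasminogen and protease list had 3 tested of 19, 1 higher and 2 lower, a median of -0.071 and 0 past the threshold: the plasmin inhibitor Serpinf2 at -0.14 and the cathepsins Ctsl at -0.071 and Ctsb at 0.043. This list went both ways along the order of Mmp12: Ctsb had it (4883.0 to 5891.0 and 5967.7 to 6971.2) and Serpinf2 had the opposite (8561.5 to 10192.3 and 6191.8 to 7736.1), which 7.28% of tested probes had. Integrin adhesion machinery had 5 tested of 22, 2 higher and 3 lower, a median of -0.028 and 0 past the threshold, with Vasp at 0.15, Csk at -0.080 and Actn4 at -0.041, and 0 of the 5 had the order of Mmp12 or its opposite.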

How the data were processed

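Biotin-labelled cRNA made from total liver RNA was hybridised to Illumina bead arrays, as the labels' protocols state. The deposited table holds an intensity per probe and animal on a linear scale, read with BeadStudio 1.5.1.3 per the submitters' processing notes. From the values, the authors had subtracted background and brought the arrays to a common mean (331.4 to 333.5); how they did so was not found in the labels or headers. A further table names its 128 columns (8 for each of 16 chip positions) by chip alone and was not used here.

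The deposited intensities were background-modelled by limma 3.58.1 in R 4.3.3 (normexp, saddle, offset 16), log2 transformed and then quantile normalized. Probes were named through the Entrez number in their identifiers and a RefSeq table of GRCm38.p6 (8884 probes). Genotypes were compared with lmFit and eBayes, two-sided, with Benjamini-Hochberg adjustment over all tested probes and a threshold of 0.05. The fit was tested on simulated data. Members, gene lists and tests were chosen with earlier results of these data known. Named are 26 of the 27 tested members (values of the other are not reported here, though it stays in the counts) and, of each list, up to 3 tested genes of smallest p, and genes chosen after their values were seen where they follow Mmp12. Quantile normalization hides a shift shared by most genes, and the offset compresses folds of dim probes. The number of arrays limits the precision. Alternatives covered background, offset, normalization, filter, title number, weights, variance model, probe choice, a Gpnmb covariate and each animal left out.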

Additional observations from a re-analysis of the deposited data

Results flagged for a closer look

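Over 26 tested members and both genotypes, 52 sets of values were examined for an animal far from the rest of its genotype, and 1 was found. Chance gives about 1 in 20 sets, so 1 among 52 is not more than chance gives. Wildtype replicate 9 had the lowest log2 level of Adamts5, at 5.53, with the next animal at 6.04 and the highest at 6.44. Its reading of -5.8 intensity units was below the noise limit of its array.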

How the results depend on the processing

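The members past the threshold numbered 0 under all 12 alternatives to the fit and with any of the 16 animals left out (0 to 0), and so did the other pathway genes (0 to 0). At an unadjusted p under 0.05 the 1 member became 6 with the title number as a fixed replicate block (1509 of all probes, against 332). It became 3 of 77 with no filter on dim probes (875 of 24048 probes) and 2 with array weights (1197 of all probes). The number was 0 with offset 50, on probes above the noise on all arrays, with the title number as a random replicate block or with a trended robust variance. Leaving out animals gave 0 to 2. Across genotypes, the deviations of the 5 pairs of animals with the same title number correlated by -0.47 to -0.13. Those pairs join transgenic replicates 3, 4 and 5 to wildtype replicate 8, transgenic replicate 6 to wildtype replicate 9, and transgenic replicate 2 to wildtype replicate 3. In the last of these, which gave -0.13, an animal of least Mmp12 meets one of the middle pair. In all the others an animal of most Mmp12 meets one of least. The correlations therefore cannot tell whether animals of a title number are alike across genotypes. The order of the animals held for 4 members on probes above the noise on all arrays, where 11 members were tested, and for 11 on deposited intensities. Without wildtype replicate 5 (chosen after seeing the data) it held for 8 members. Taking an animal out of the 8 of most Mmp12 cannot lower this number, so that setting was no check of the order. The median percentile of the spread over animals, 81.5, was 86.5 with floored intensities and 82.0 on probes above the noise on all arrays. The median difference of 0.10 became 0.22 with the deposited scaling alone and 0.25 with the fixed block.

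Some differences changed sign, among them several of the larger ones. With the Gpnmb covariate the log2 differences were -0.28 for Adam11, -0.020 for Adam17, 0.013 for Adam28, -0.14 for Col1a1, 0.15 for Col27a1, -0.057 for Col3a1, -0.023 for Col5a1, -0.050 for Col6a3, 0.018 for Itgb2l, -0.018 for Itgb4, -0.051 for Itgb5 and -0.015 for Itgbl1. Adam17 gave -0.00021 and Col27a1 0.029 with the random block, and Adamts2 0.030 with the fixed block. Col13a1 gave -0.0086 with floored intensities, -0.018 with median centring and -0.036 with array weights, and Itgb4 -0.0056 with median centring. Itgb2l gave 0.027 with floored intensities, 0.070 with the deposited scaling alone, 0.059 with the fixed block, 0.0048 with the random block and 0.0070 with array weights. With single animals left out, sign changes lay within -0.10 to 0.034 for Adam28, -0.038 to 0.066 for Col13a1, -0.038 to 0.43 for Col1a1, -0.23 to 0.069 for Col27a1, -0.039 to 0.045 for Itgb2l, -0.021 to 0.068 for Itgb4 and -0.012 to 0.071 for Lamb2. The cause of these changes was not tested.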

Other observations

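For 10 members a further probe of the same gene was on the array. The dimmer probe of Timp3 (-27.8 to -6.1) was above the noise on 0 arrays, while the probe read for it was above it on 16. The dimmer probe of Adam28 was above the noise on 5 arrays (2.6 to 46.3), against 7 for the probe read.

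Wildtype replicate 3 combined 129.0 intensity units of Mmp12 and 543.1 of Adam11 with -11.5 of Col3a1 and 5.6 of Lama5, and wildtype replicate 7 combined 155.9 and 630.3 with 45 and 34.9.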
